A study of Ovis aries with 30 samples.

Results

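The genes that write, read and remove DNA methylation were examined in liver RNA of first-generation (F1) lambs whose mothers had or had not been exposed to biosolids. The 10 genes were taken by name: the methyltransferases DNMT1, DNMT3A and DNMT3B, the recruiting factor UHRF1, the methyl-CpG reader MBD2, the dioxygenases TET1, TET2 and TET3, the glycosylase TDG and the methionine adenosyltransferase MAT1A. All 10 were among the 31304 gene rows of the count table and among the 17840 genes kept by the filter on low counts, so none was lost to it. Biosolids, treated sewage sludge spread on land, carry a mixture of environmental chemicals, and exposure of the ewes covered the time before conception and the pregnancy. The groups were 7 biosolids males, 7 control males, 8 biosolids females and 8 control females. Each library came from whole liver of a lamb with its own tag number. The age of the lambs and their litters were not given in the sources used here.

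DNA methylation is a methyl group on cytosine, mostly where a guanine follows, and marks silenced promoters, repeats and imprinted genes. DNMT1 copies the marks onto new DNA strands after replication and is brought there by UHRF1, whereas DNMT3A and DNMT3B set marks at sites that had none. TET enzymes oxidise the methyl group, and TDG cuts out the oxidised bases so that repair restores plain cytosine. The methyl groups come from S-adenosylmethionine, which the adult liver makes from methionine with MAT1A, while MAT2A makes it in most other and in dividing cells.

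Total counts per library ranged from 18.7 to 51.9 M (mega-counts). The library of biosolids male 8778 stood apart, since 87.5% of its counts fell on ribosomal RNA rows, against at most 7.69% in the other libraries, which left it 2.34 M other counts. In that library the 10 genes had from 4 counts (DNMT3B) to 1662 counts (MAT1A). The labels on sex matched the rows of chromosome Y, whose summed level lay between 164 and 189 CPM (counts scaled to the size of the library) in the 14 males and between 11.3 and 21.2 CPM in the 16 females. Control male 8408, at 167 CPM of these rows, also held 302 CPM of LOC101112291, an X-linked non-coding transcript, where the other 13 males held at most 2.05 CPM and the females 318 to 824 CPM. Values without 8778 or 8408 are given beside results that these libraries enter; not every value is repeated without them. The tissue label fitted its markers: 9 hepatocyte genes together took 57550 to 112600 CPM in every lamb, while 6 erythroid genes together took 0.207 to 1.204 CPM. In whole liver, fewer cells of a type and less RNA per cell cannot be told apart.

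Levels were compared between genes as CPM per kilobase of exon, with the exon length of all isoforms from the count table. MAT1A (chromosome 25, 34720716 to 34763319, minus strand; assembly ARS-UI_Ramb_v3.0 here and below) was the most abundant by far, with a median of 285 CPM per kilobase over the 30 lambs and a range of 155 to 473. MBD2 (chromosome 23, 53917916 to 53985536, minus strand), which binds methylated CpG sites and brings in a repressor complex, followed with a median of 9.35 CPM per kilobase and a range of 6.41 to 11.1. These ranges did not overlap with each other or with the ranges of the genes below them.

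TDG (chromosome 3, 173242161 to 173263303, plus strand) came next at a median of 4.45 CPM per kilobase. DNMT1 (chromosome 5, 12542273 to 12585831, minus strand) had a median of 3.40 CPM per kilobase. TDG lay above DNMT1 in 23 of the 30 lambs, so that the order of these neighbours was not the same in every liver. TET2 (chromosome 6, 20279562 to 20414988, minus strand) had a median of 2.77 CPM per kilobase and lay below DNMT1 in 27 lambs.

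TET3 (chromosome 3, 95802310 to 95914055, plus strand) stood at a median of 1.97 CPM per kilobase and lay below TET2 in all 30 lambs. DNMT3A (chromosome 3, 32654838 to 32759345, minus strand) stood at 1.84 CPM per kilobase, below TET3 in 23 lambs. UHRF1 (chromosome 5, 17039306 to 17074863, minus strand) stood at 0.779 CPM per kilobase and had the widest range relative to its median, 0.347 to 3.03. DNMT3B (chromosome 13, 61802663 to 61836994, plus strand) and TET1 (chromosome 25, 24134195 to 24274120, plus strand) were lowest, at medians of 0.251 and 0.248 CPM per kilobase, and DNMT3B lay above TET1 in 18 of the 30 lambs, so these neighbours were not set apart by their level.

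**Figure D1:**
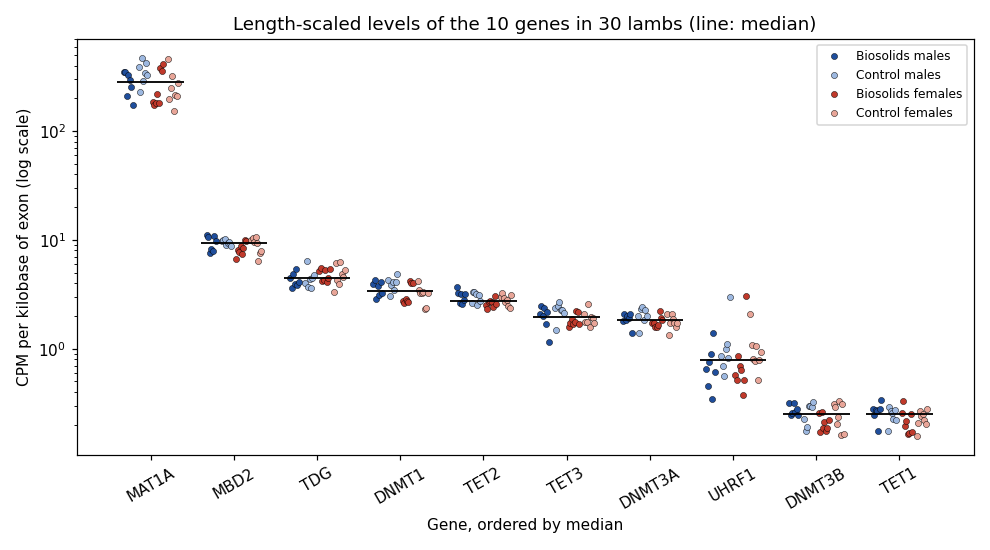
Level of each gene in each of the 30 lambs, in CPM per kilobase of exon on a log axis, with genes ordered by their median (line) and lambs coloured by group. MAT1A, at a median of 285, lay far above all others, and DNMT3B and TET1, at 0.251 and 0.248, lay at the bottom with overlapping points.

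By length-scaled level TET2 and DNMT1 held the largest share of their families in every lamb, and TET1 and DNMT3B the smallest. That order rests on dividing by exon length: 19852 bases for TET3, 10736 for TET2, 18682 for DNMT3A and 5690 for DNMT1. In plain CPM the larger means were those of TET3 and DNMT3A. Biosolids males without 8778 averaged 42.2 CPM of TET3 and 32.5 of TET2, and 36.5 of DNMT3A and 20.95 of DNMT1. Which isoforms the livers held was not tested. Of the summed length-scaled level of the TET genes, TET2 made up 56.3% ± 4.51, TET3 39.0% ± 4.97 and TET1 4.71% ± 1.02 (SD, n = 30 lambs). Of the methyltransferases, DNMT1 made up 62.0% ± 3.53, DNMT3A 33.5% ± 3.37 and DNMT3B 4.47% ± 1.02 (SD, n = 30). In single lambs TET2 held 48.8 to 68.4% of its family, TET3 24.4 to 46.8% and TET1 3.03 to 7.55%. The highest share of TET2 and the lowest of TET3 were those of 8778, and without it these ends were 65.1% and 29.2%. DNMT1 held 54.9 to 67.9%, DNMT3A 26.4 to 41.2% and DNMT3B 2.66 to 7.24% of theirs. DNMT3A, TET1, TET3, UHRF1 and MAT1A each overlap other annotated genes, and the sources used here do not say if strand was used in counting. The largest such partner was DYDC1, at 1.88 CPM beside 979 CPM of MAT1A. For UHRF1, at a mean of 3.84 CPM, the partner ARRDC5 on the opposite strand reached 1.80 CPM, so part of the counts of these genes cannot be told apart.

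The first comparison asked whether exposure before birth went with other levels of these genes, within males, within females and over both sexes. With 4 group means in 1 model, 0 of the 10 genes passed an adjusted p of 0.05 (edgeR's quasi-likelihood F test, Benjamini-Hochberg over 17840 genes) in any of these comparisons or in the interaction of exposure with sex, beside a background of 0% of all genes in each. At an unadjusted p under 0.05 there were also 0 of 10 in males, in females, over both sexes and in the interaction, beside 5.44%, 3.65%, 4.3% and 3.63% of all genes. DESeq2 and limma voom with sample weights called none of the 10 for exposure either. DESeq2 called very few of all genes for exposure (counts in the closing section), so its result says little about the 10. For voom the count of all genes called for exposure is not given here. Over both sexes 9 of the 10 fitted differences lay below 0, beside 51.1% of all genes, with a median of -0.055 on the log2 scale against -0.004 for all genes, and only that of TET1 lay above 0. Several of the 10 genes moved together between lambs (below), so their signs are not independent and the count was not tested. Not all of these signs were stable: RLE scaling turned none, but 2 surrogate variables turned TET1 and DNMT3A, voom weights turned TET1 and TDG, and leaving out 1 lamb turned TET1 in 4 fits and TDG in 3. In males the smallest adjusted p of the 10 was 0.995 without 8778 and 0.869 without 8408.

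**Figure D2:**
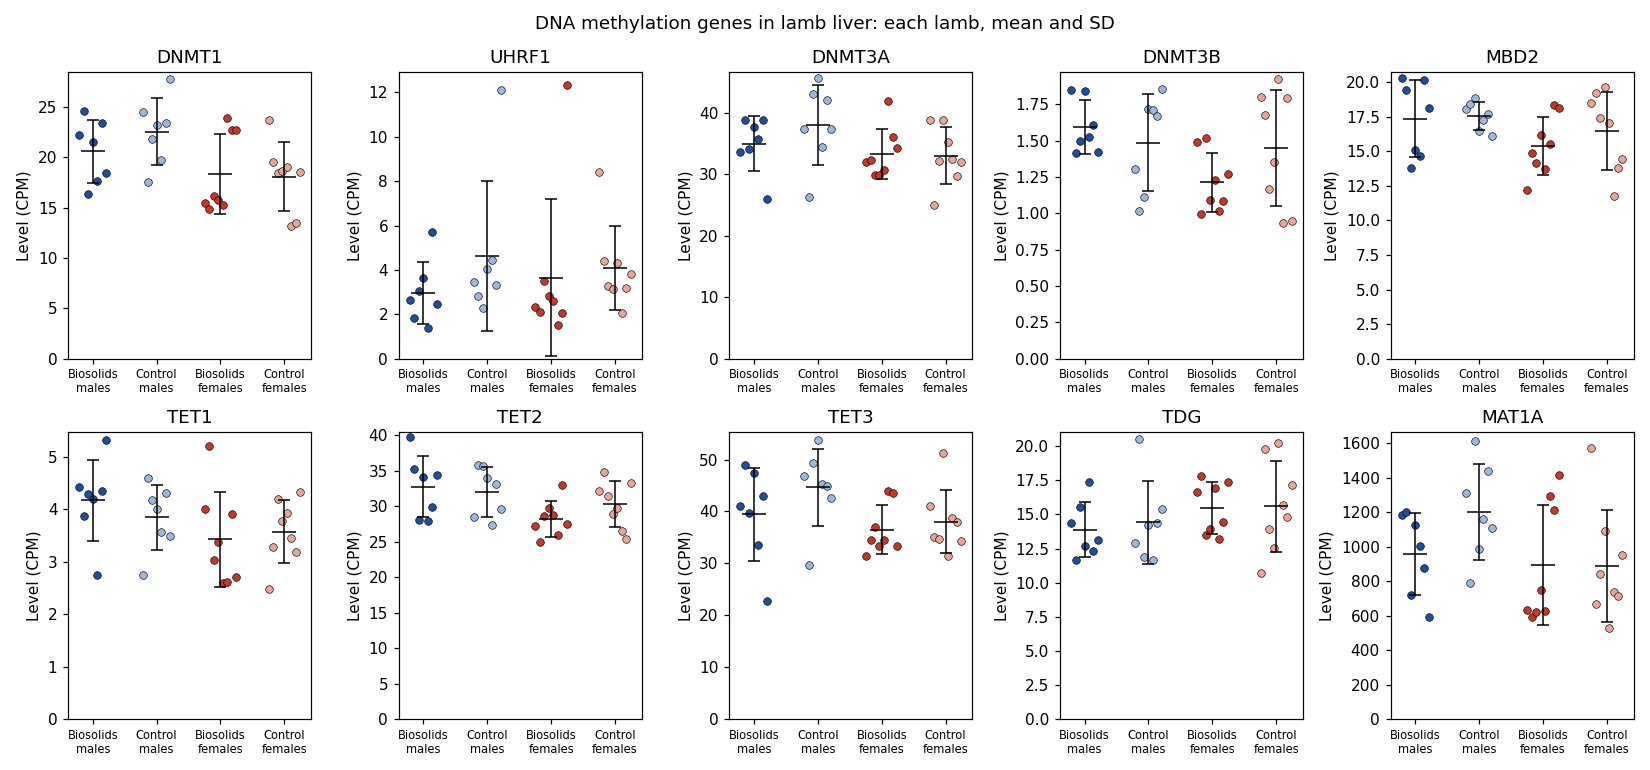
Level of each of the 10 genes in CPM, 1 point per lamb in 4 groups, with the mean (wide dash) and SD (bars); each axis starts at 0. The groups overlap for every gene, and the single high points of UHRF1 near 12 CPM belong to a biosolids female and a control male.

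DNMT1, the maintenance enzyme, had lowest, median and highest levels of 16.4, 21.5 and 24.6 CPM in biosolids males, against 17.5, 23.2 and 27.7 CPM in control males. In females they were 14.8, 15.96 and 23.9 CPM with biosolids, against 13.1, 18.6 and 23.7 CPM in controls. The groups overlapped almost completely in both sexes. The fitted log2 difference was -0.13 ± 0.14 (SE) in males and 0.022 ± 0.13 in females, with edgeR adjusted p of 0.857 and 1.0.

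UHRF1, which recognises hemimethylated DNA behind the replication fork, ran at 1.41, 2.64 and 5.69 CPM in biosolids males, against 2.29, 3.46 and 12.1 CPM in control males. Biosolids females had 1.51, 2.46 and 12.3 CPM, against 2.07, 3.55 and 8.39 CPM in control females. The medians were lower with biosolids in both sexes, but 1 lamb in each of 3 groups lay far above the rest, and the ranges overlapped. The fitted log2 difference was -0.63 ± 0.42 in males and -0.15 ± 0.39 in females (SE, edgeR adjusted p 0.816 and 1.0).

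Over both sexes UHRF1 differed by -0.39 ± 0.29, with a 95% interval of -0.977 to 0.191. This estimate depended on single lambs. In males it became -0.18 without control male 8428, and in females it became -0.753 without biosolids female 8775 and 0.084 without control female 8245. Without 8775 the difference over both sexes was -0.693 with an unadjusted p of 0.00559 and an edgeR adjusted p of 0.922. No fit that left out 1 lamb brought the adjusted p of UHRF1 over both sexes below 0.704.

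DNMT3A, the more abundant enzyme of new methylation, averaged 35.0 ± 4.53 CPM in biosolids males and 38.0 ± 6.47 CPM in control males (SD, n = 7 each). In females it averaged 33.3 ± 4.04 CPM with biosolids and 33.0 ± 4.61 CPM in controls (SD, n = 8 each). The log2 difference in males, -0.11 ± 0.12 (SE), was about its error, and without biosolids male 8778, whose 25.9 CPM was the lowest of its group, it was -0.061.

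DNMT3B, its low-abundance relative, had 1.41, 1.53 and 1.85 CPM in biosolids males, against 1.02, 1.67 and 1.86 CPM in control males. Biosolids females had 0.993, 1.16 and 1.52 CPM, against 0.933, 1.52 and 1.92 CPM in control females. The control lambs of both sexes spread more widely than the exposed ones in these samples, a difference in spread that was not tested. The log2 difference was 0.11 ± 0.19 in males and -0.26 ± 0.18 in females (SE). The interaction, 0.37 ± 0.26 with a 95% interval of -0.165 to 0.901, did not pass (edgeR adjusted p 0.951).

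Among the erasers, TET2 was the steadiest. It had 27.9, 34.1 and 39.7 CPM in biosolids males, against 27.4, 33.1 and 35.8 CPM in control males, and 24.97, 28.1 and 32.9 CPM in biosolids females, against 25.4, 30.6 and 34.9 CPM in control females. The exposure groups covered each other within each sex. Over both sexes the log2 difference was -0.035 ± 0.066 (SE), and its 95% interval, -0.17 to 0.099, was the narrowest of the 10.

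TET3 averaged 39.4 ± 8.96 CPM in biosolids males and 44.6 ± 7.503 CPM in control males (SD, n = 7 each), and 36.5 ± 4.74 CPM in biosolids females and 38.1 ± 6.12 CPM in the control females (SD over 8 lambs each). The log2 difference in males was -0.17 ± 0.14 (SE, edgeR adjusted p 0.833), and -0.081 without 8778, whose 22.7 CPM was the lowest of all lambs. TET1, the TET enzyme best known from embryonic stem cells, averaged 4.17 ± 0.769 CPM in biosolids males and 3.84 ± 0.621 CPM in control males (SD, n = 7 each). Biosolids females averaged 3.43 ± 0.907 CPM and control females 3.57 ± 0.608 CPM of TET1 (SD, n = 8 each), and neither sex showed a difference beyond the spread. The highest TET1 level of the biosolids males, 5.32 CPM, was that of 8778 and rests on 15 counts, and without it they averaged 3.97 ± 0.630 CPM (SD, n = 6).

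TDG averaged 13.9 ± 2.01 CPM in biosolids males and 14.4 ± 3.02 CPM in control males (SD, n = 7 each), and 15.5 ± 1.91 CPM in biosolids females and 15.6 ± 3.34 CPM in the control females (SD over 8 lambs each). MBD2 averaged 17.4 ± 2.78 CPM in biosolids males and 17.6 ± 0.996 CPM in control males (SD, n = 7 each), and 15.4 ± 2.11 CPM in biosolids females and 16.5 ± 2.85 CPM in the control females (SD over 8 lambs each). For both genes the difference over both sexes was smaller than its error, -0.033 ± 0.094 for TDG and -0.057 ± 0.080 for MBD2 on the log2 scale (SE).

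MAT1A had 590, 1004 and 1204 CPM in biosolids males, against 788, 1160 and 1611 CPM in control males. It had 592, 693 and 1414 CPM in biosolids females, against 527, 792 and 1573 CPM in control females. The highest 3 male values were those of controls, yet the ranges overlapped. The log2 difference was -0.33 ± 0.24 in males and 0.006 ± 0.23 in females (SE, edgeR adjusted p 0.827 and 1.0), and that in males was -0.239 without 8778. Leaving out UHRF1 and MAT1A, the 95% intervals of the other 8 genes over both sexes lay between -0.339 and 0.251 on the log2 scale. Of 9 hepatocyte marker genes 9 lay below 0 for exposure in males (median -0.141), beside 48.7% of all genes, and 4 in females. Over both sexes 6 of 6 cholangiocyte genes lay above 0 (median 0.776). The leukocyte, endothelial and stellate lists then lay partly above and partly below 0. No marker passed an adjusted p of 0.05, and the part of cell shares in the exposure differences was not tested.

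**Figure D3:**
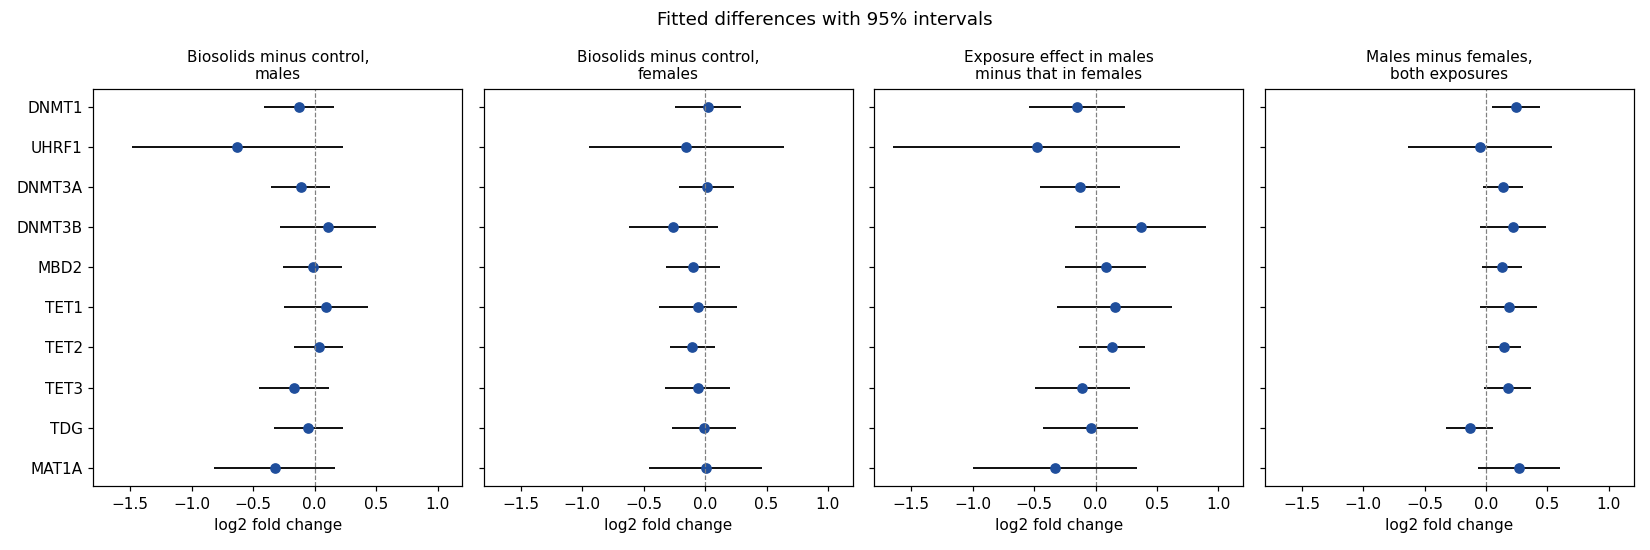
Fitted log2 fold changes (points) with 95% intervals (lines) for exposure in males, exposure in females, the interaction and males against females. All intervals for exposure and the interaction include 0, UHRF1 has the widest, and those of DNMT1 and TET2 for sex lie just above 0 before adjustment for the number of genes.

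The second comparison set males against females. No member passed here either: 0 of 10 within biosolids lambs, within controls or over both exposures, beside 0.0953%, 0.0841% and 0.118% of all genes. Those shares are 17, 15 and 21 genes. The count within controls was 23 without control female 8245, and that over both exposures was 51 without biosolids male 8778 and 47 without biosolids male 8735. At an unadjusted p under 0.05 there were 2 of 10 within biosolids lambs (background 4.85%), 1 of 10 within controls (18.9%) and 2 of 10 over both exposures (19.6%). Over both exposures the share of the 10 was thus close to that of all genes. The fitted difference was above 0 for 8 of 10, beside 46.2% of all genes, with a median of 0.16 against -0.025 for all genes. As for exposure, these signs are not independent and the count was not tested.

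DNMT1 had the smallest p of the 10 over both exposures. Males had 16.4, 21.5 and 24.6 CPM with biosolids and 17.5, 23.2 and 27.7 CPM in controls, against the 14.8, 15.96 and 23.9 CPM and the 13.1, 18.6 and 23.7 CPM of females. The sexes overlapped, with the male medians above the female ones. The log2 difference was 0.24 ± 0.096 (SE, unadjusted p 0.0158, edgeR adjusted p 0.208), and 0.26 without control male 8408.

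TET2 followed with a log2 difference of 0.15 ± 0.066 (SE, unadjusted p 0.0326, edgeR adjusted p 0.233), and of 0.13 without 8778 (unadjusted p 0.0559). Within biosolids lambs its difference was 0.22 ± 0.093 (unadjusted p 0.0282) and within controls 0.080 ± 0.093. DNMT3B differed by 0.40 ± 0.19 within biosolids lambs (unadjusted p 0.0385, edgeR adjusted p 0.969) and by 0.034 ± 0.18 within controls, where it was -0.000818 without 8408. The difference between these effects is the interaction already given, which did not pass. TDG and UHRF1 were the only members below 0 over both exposures, at -0.13 ± 0.094 and -0.050 ± 0.29.

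The call depended on the method for 3 members. Limma voom with sample weights, which gives less weight to libraries far from their group, called DNMT1 (log2 0.344, adjusted p 0.014), TET3 (0.258, adjusted p 0.0283) and DNMT3A (0.208, adjusted p 0.0352) higher in males over both exposures. It called 18.6% of all genes in that comparison, so 3 of 10 members stood against a background of that size. Between the sexes the marker lists of the cell types lay partly above and partly below 0, with 0 genes past an adjusted p of 0.05 (edgeR). Fitted differences over both exposures lay above 0 for 6 of 8 stellate and fibroblast genes (median 0.508, 4 at an unadjusted p under 0.05), for 6 of 8 endothelial genes (median 0.13) and for 6 of 9 hepatocyte genes (median 0.203). Among the hepatocyte genes AHSG, a plasma glycoprotein, stood at 0.35 ± 0.15 and APOA1, the main protein of high-density lipoprotein, at -0.21 ± 0.091 (unadjusted p 0.0253 and 0.029). The fitted differences lay below 0 for 6 of 9 leukocyte genes (median -0.168) and for 4 of 6 cholangiocyte genes (median -0.802), against a median of -0.025 for all genes. Beside these lists, 46.2% of all genes lay above 0 and 19.6% had an unadjusted p under 0.05. The 8 stellate and fibroblast genes summed to 430 ± 153 CPM in biosolids males and 508 ± 73.1 CPM in control males (SD, n = 7 each), against 369 ± 151 CPM in biosolids females and 281 ± 63.0 CPM in the control females (SD over 8 lambs each), with ranges of 204 to 597.5, 393 to 618, 212 to 641 and 197 to 359 CPM. The lowest biosolids male was 8778, and without it the range of that group was 323 to 597.5 CPM. The hepatocyte sums were 88100 ± 13140 CPM in biosolids males and 94710 ± 11220 CPM in control males, against 80330 ± 17650 CPM in biosolids females and 76230 ± 15630 CPM in control females (SD), with ranges of 63610 to 105000, 83130 to 112600, 57550 to 107400 and 58820 to 108900 CPM. The endothelial sums were 885 ± 137 CPM in biosolids males and 985 ± 76.5 CPM in control males, against 845 ± 64.3 CPM in biosolids females and 861 ± 140 CPM in control females (SD), with ranges of 678 to 1026, 886 to 1112, 769 to 941 and 725 to 1136 CPM. The leukocyte sums were 922 ± 183 CPM in biosolids males and 980 ± 189 CPM in control males, against 934 ± 137 CPM in biosolids females and 1051 ± 346 CPM in control females (SD). The cholangiocyte sums were 23.7 ± 5.59 CPM in biosolids males and 18.9 ± 4.87 CPM in control males, against 38.3 ± 50.9 CPM in biosolids females, where lamb 8649 alone had 161 CPM, and 18.8 ± 6.59 CPM in control females (SD). Of the stellate, hepatocyte, endothelial and cholangiocyte lists 8 of 8, 9 of 10, 8 of 8 and 6 of 7 genes were measured, none of them at 0 in all lambs. Their part in the differences between the sexes was not tested.

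The members differed widely in how much they varied between lambs of the same group. TET2 had a within-group SD of 0.158 on the log2 CPM scale, and 1.5% of the 17840 genes varied less. MBD2 (0.209) and DNMT3A (0.212) were also among the steady genes, with 7.95% and 8.45% of genes below them. MAT1A, at 0.453, lay near the middle of all genes, and UHRF1, at 0.734, varied more than 80.8% of them.

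In UHRF1, 3 lambs of 3 groups stood apart. Biosolids female 8775 had 12.3 CPM, control male 8428 had 12.1 CPM and control female 8245 had 8.39 CPM, while the other 27 lambs had at most 5.69 CPM. The same lambs carried the highest sums of 20 cell-cycle genes (1 of them, AURKB, at 0 in every lamb): 253 CPM in 8775, 254 CPM in 8428 and 194 CPM in 8245, against at most 187 CPM elsewhere. Of the 19 cell-cycle genes tested, 14 in lamb 8775, 13 in 8428 and 10 in 8245 lay above the highest of the other 27 lambs. CDC20, an activator of the mitotic ubiquitin ligase, reached 6.14, 6.33 and 3.42 CPM in 8775, 8428 and 8245, beside a median of 1.18 CPM over all lambs. CCNA2, a cyclin of S phase and mitosis, reached 4.21, 3.65 and 2.01 CPM beside a median of 0.747 CPM. ARRDC5, which overlaps UHRF1 on the other strand, was not raised in them, at 1.27, 1.19 and 1.65 CPM beside a median of 1.66 CPM.

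Over all 30 lambs, with group means removed, UHRF1 and the cell-cycle sum had a Pearson r of 0.688 (permutation p 0.00108) and a Spearman rho of 0.436 (permutation p 0.022; adjusted p 0.0179 and 0.102 over 60 relations of the members with 6 gene lists). Without the 2 lambs farthest from the median on the axis of the sum, r was 0.387. Without the 3 lambs r was 0.218 and rho 0.137, so the relation rests on these lambs. DNMT1 had an r of 0.674 (permutation p 0.00014) and a rho of 0.656 (permutation p 0.00036) with the same sum, adjusted p 0.0084 and 0.01. That relation was less bound to the 3 lambs, with an r of 0.584 and a rho of 0.58 without them (adjusted p 0.0638 and 0.06). The cell-cycle sum was uneven: in biosolids males without 8778, TPX2 averaged 55.4 and RRM1 20.1 of 154.7 CPM. In the same lambs MKI67 averaged 5.38 CPM, and CDK1, CCNA2 and CCNB1 0.370, 0.829 and 0.630 CPM. Relations with this sum therefore follow its most abundant genes most, and relations with its single genes were not tested. UHRF1 also went with the sum of leukocyte markers (rho 0.527, permutation p 0.00374, adjusted p 0.0374), but its r was 0.373 (permutation p 0.0329, adjusted p 0.123). Of the 12 leukocyte genes 9 were tested and CD68 was at 0 in every lamb, and their sum ranged over 778 to 1228 CPM in biosolids males, 811 to 1330 CPM in control males, 792 to 1203 CPM in biosolids females and 748 to 1769 CPM in control females. Without 8408 this rho was 0.491 (adjusted permutation p 0.0607) and without 8778 it was 0.551 (adjusted permutation p 0.022). Without the 3 lambs rho was 0.446 with an adjusted p of 0.128. This sum was also uneven: in biosolids males without 8778, C1QB averaged 311 and CD14 209 of 886 CPM, and CD3E 5.83 CPM.

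**Figure D4:**
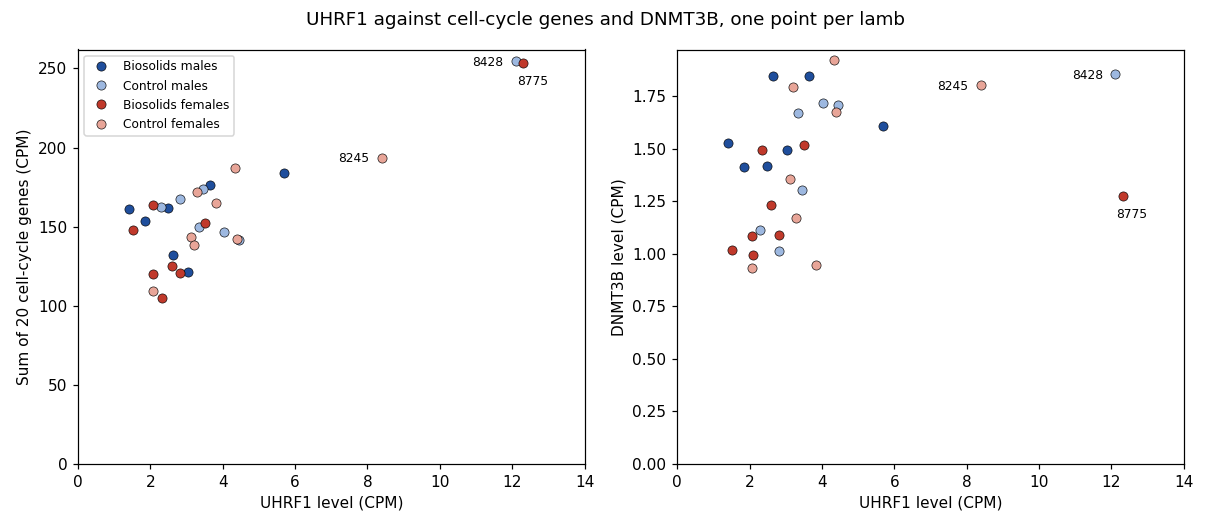
UHRF1 level in CPM against the sum of 20 cell-cycle genes in CPM (left) and against DNMT3B in CPM (right), 1 point per lamb, coloured by group. Lambs 8428, 8775 and 8245 hold the highest values on the left, and on the right the relation also runs through the other 27 lambs.

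The genes also moved together between lambs. Of the 45 pairs of members, 10 were related at an adjusted p under 0.05 (Spearman rho of group-centred log2 CPM, 100000 shuffles within groups, Benjamini-Hochberg over 45), 8 of them positively, and all 10 also passed by Pearson r. Without biosolids male 8778, and likewise without control male 8408, 10 pairs passed. DNMT3A and TET3, a writer and an eraser, had a rho of 0.677 (permutation p 8e-05) and an r of 0.772 (permutation p 2e-05), and an r of 0.612 without the 2 lambs farthest from the median. MAT1A went with DNMT1 (rho 0.647, r 0.684), DNMT3A (rho 0.646, r 0.642) and TET3 (rho 0.584, r 0.598), all with adjusted p of at most 0.00611. TDG ran the other way, with a rho of -0.643 (r -0.572) with TET3 and -0.511 (r -0.548) with MAT1A. DNMT1 with MBD2 (rho 0.631), DNMT1 with DNMT3A (rho 0.566) and TET2 with MBD2 (rho 0.524) made up the rest beside DNMT3B with UHRF1.

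Several of these genes lay along an axis that very many genes share. The first principal component of all 17840 genes held 18.3% of the variance between lambs within groups, and 38.0% of all genes had a rho over 0.5 in size with it. MAT1A (rho 0.80), TET3 (0.786), DNMT3A (0.751) and DNMT1 (0.67) followed it and TDG (-0.66) ran against it, whereas UHRF1 (0.0069) and DNMT3B (-0.057) did not. The component went with the total count of the library (rho 0.479, and 0.423 without 8778) and against the share of ribosomal RNA (rho -0.304, and -0.229 without 8778). The 10% of genes highest on it had a median exon length of 5091 bases, against 2421 bases in the lowest 10%. With the component removed, 1 of the 45 pairs passed by rho and 3 by r. With the component computed anew without 8778, and likewise without 8408, 1 passed by rho and 0 by r. Among the cell type lists, the hepatocyte sum went with MAT1A (rho 0.682, r 0.671), DNMT1 (rho 0.635, r 0.607), DNMT3A (rho 0.624, r 0.519) and MBD2 (rho 0.572, r 0.556), with adjusted permutation p of 0.01 to 0.0332 for rho over the 60 relations. Without the 3 lambs with most UHRF1 these rho were 0.606, 0.585, 0.548 and 0.487. None of them then passed (adjusted permutation p 0.06 to 0.108), and by r only MAT1A did (0.0414). This sum too was uneven: in biosolids males without 8778, ALB averaged 57170 of 88910 CPM and HNF4A 719 CPM. The endothelial sum went with DNMT3A (r 0.564, rho 0.493), TET3 (r 0.538, rho 0.498) and DNMT1 (r 0.531, rho 0.466), which passed by r (adjusted permutation p 0.0179, 0.0423 and 0.0296) and not by rho (0.0532, 0.0635 and 0.0804). Without 8778 DNMT1 was the 1 gene of these 3 that passed by r with the endothelial sum (r 0.538, adjusted permutation p 0.0348). Without the 3 lambs with most UHRF1 none of them passed with it (adjusted permutation p for r 0.0638 to 0.0766). What the component stands for, and the part of hepatocyte and endothelial shares in these pairs, was not tested.

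The pair that passed both ways with the component removed was DNMT3B with UHRF1. Its rho was 0.60 (permutation p 0.00048, adjusted p 0.00532) and its r 0.504 (permutation p 0.00273, adjusted p 0.0136), and the r was 0.503 without the 2 lambs farthest from the median. With the component removed rho was 0.616 and r 0.505 (adjusted p 0.0153 and 0.0409). Without 8778 rho was then 0.621 and r 0.508 (adjusted permutation p 0.0153 and 0.0679). Without 8408 they were 0.608 and 0.504 (adjusted permutation p 0.0284 and 0.054), so in both settings the pair passed by rho only. It did not rest on the lambs with high UHRF1, since rho was 0.603 and r 0.514 without them (adjusted p 0.00956 and 0.0134). Both genes are low, with medians of 1.46 and 3.17 CPM. With the sum of leukocyte markers DNMT3B had a rho of 0.385 and an r of 0.301 (adjusted permutation p 0.226 and 0.438), beside the rho of 0.527 of UHRF1. The part of leukocyte shares in this pair was not tested. By r alone DNMT1 passed with MBD2 (r 0.591, rho 0.507) and with UHRF1 (r 0.526, rho 0.383) once the component was removed, each with an adjusted permutation p of 0.0409 for r. TET2 with MBD2 had nearly the same values with the component removed (rho 0.523, r 0.526) as with it in place (0.524 and 0.529), though its adjusted p was then 0.136 for rho and 0.0682 for r.

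**Figure D5:**
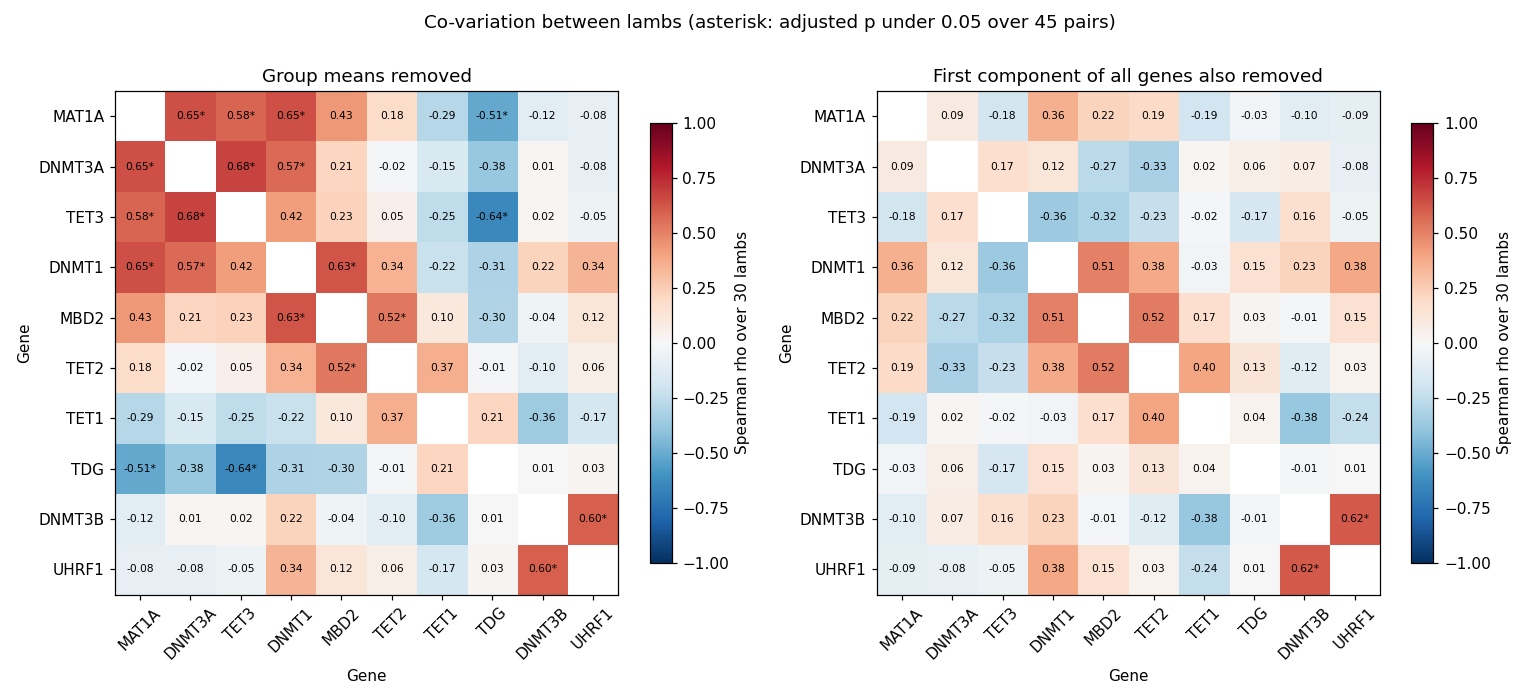
Spearman rho between each pair of the 10 genes over 30 lambs with group means removed (left) and with the first component of all genes removed as well (right); an asterisk marks an adjusted p under 0.05 over 45 pairs. The block around MAT1A, DNMT3A, TET3 and DNMT1 on the left fades on the right, where DNMT3B with UHRF1 (0.616) is the 1 pair still marked and TET2 with MBD2 (0.523) is as large as on the left.

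Genes whose level followed a member most closely were picked by Spearman rho of group-centred log2 CPM over the 30 lambs among 12037 named genes with a mean of at least 1 CPM, and since they were chosen by that value no test is given. UHRF1 was followed by FAM111B (rho 0.737), a protease gene of S phase, E2F1 (0.724), a transcription factor that drives entry into S phase, and ZNF367 (0.679). DNMT3B was followed by CARMIL2 (0.659), UNC13D (0.65) and HK3 (0.639), of which UNC13D is known for granule release in lymphocytes and HK3 is the hexokinase of myeloid cells. The closest genes to DNMT1 were TLN1 (0.888), which links integrins to actin, and SNX27 (0.884).

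MAT1A was closest to PEX5 (0.919), the import receptor of peroxisomes, TEF (0.897), a clock-controlled transcription factor, and TMEM43 (0.893). TET3 was closest to MTCL2 (0.935), ZNF865 (0.886) and TNRC18 (0.881), and DNMT3A to BAHD1 (0.849), FZR1 (0.843) and TFIP11 (0.831). TDG was closest to DNAJB14 (0.84), TET2 to TMCO1 (0.717) and TET1 to KITLG (0.711). For MAT1A, TET3, DNMT3A, DNMT1 and TDG these values stand beside the shared component just described.

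The balance of both enzymes that make S-adenosylmethionine was read as the ratio of length-scaled MAT1A to MAT2A (chromosome 3, 57381863 to 57388463, plus strand) within each library, which needs no scaling between libraries. It averaged 5.62 ± 1.18 in biosolids males and 7.16 ± 3.11 in control males (SD, n = 7 each), and 4.90 ± 1.58 in biosolids females and 5.74 ± 2.65 in control females (SD, n = 8 each). MAT1A exceeded MAT2A in every lamb, from 3.28 times in a biosolids female to 13.8 times in control male 8408. The log2 ratio was lower by 0.287 in biosolids than in control males (exact two-sided permutation p 0.261 over 3432 splits) and by 0.175 in biosolids than in control females (exact p 0.516 over 12870 splits). Males were above females by 0.233 within biosolids lambs (exact p 0.276) and by 0.345 within controls (exact p 0.259). None passed, with adjusted p of 0.368 to 0.516 over the 4 comparisons, and without 8408 the difference between exposures in males was -0.113 and that between sexes in controls 0.171.

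The genes around the members were read in 5 lists. Of the methyl-CpG readers and partners of the writers, 14 of 16 were tested (DPPA3 was not analysed here, and DNMT3L did not pass the filter). In males 0 of 14 passed (1, ZFP57, at an unadjusted p under 0.05), with 10 fitted differences below 0 and a median of -0.087, against 0.009 for all genes. Among all genes 48.7% lay below 0 in males and 5.44% had an unadjusted p under 0.05. ZFP57, which keeps imprints methylated in mouse embryos, had 0.710, 1.01 and 2.08 CPM in biosolids males, against 0.427, 0.717 and 1.003 CPM in control males. The exposed median lay barely above the highest control, and the ranges overlapped. Its log2 difference was 0.76 ± 0.26 in males (unadjusted p 0.0064, edgeR adjusted p 0.816) and -0.34 ± 0.24 in females, and the interaction was 1.10 ± 0.35 (unadjusted p 0.00394, adjusted p 0.951). In males it was 0.811 without 8778 and 0.671 without 8408. Within controls ZFP57 was lower in males than in females, with a log2 difference of -0.822 (unadjusted p under 0.05, edgeR adjusted p 0.198). MBD3, of the same list, differed by -0.26 ± 0.16 in males, and by -0.189 without 8778. In females 0 of 14 passed (0 at an unadjusted p under 0.05).

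Of the base excision and demethylation partners, 16 of 17 were tested and 0 passed for exposure in either sex (2 in males and 0 in females at an unadjusted p under 0.05). The share of all genes at that unadjusted p was 5.44% in males and 3.65% in females. GADD45G, a stress-induced gene linked to active demethylation, had the smallest p of all lists in males. It had 3.64, 4.91 and 6.56 CPM in biosolids males, against 4.71, 9.65 and 17.3 CPM in control males, and 3.50, 6.92 and 9.65 CPM in biosolids females, against 1.93, 3.61 and 13.5 CPM in control females. The median was lower with biosolids in males and higher with biosolids in females, with overlap in both sexes. The log2 difference was -0.98 ± 0.32 in males (unadjusted p 0.00466, edgeR adjusted p 0.816) and 0.46 ± 0.29 in females (unadjusted p 0.125). The interaction of -1.44 ± 0.43 had an unadjusted p of 0.00235 and an adjusted p of 0.951. In males the difference was -0.964 without 8778 and -1.09 without 8408. Within controls GADD45G was higher in males than in females, with a log2 difference of 0.975 (unadjusted p under 0.05, edgeR adjusted p 0.198). OGT, the sugar transferase that binds TET proteins, differed by 0.27 ± 0.13 in males (unadjusted p 0.0435, and 0.0634 without 8778), and GADD45A by 0.29 ± 0.20 in females.

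The methionine and S-adenosylmethionine cycle had 16 of 17 genes tested (INMT was not analysed here), and 0 passed for exposure, nor had any an unadjusted p under 0.05 in either sex. In males 10 differences lay below 0 with a median of -0.020, and in females 7 with a median of 0.053. Beside them 48.7% of all genes lay below 0 in males and 54.1% in females. BHMT, which remethylates homocysteine with betaine, averaged 350 ± 61.8 CPM in biosolids males and 435 ± 109 CPM in control males (SD, n = 7 each), a log2 difference of -0.31 ± 0.23 (SE), and its relative BHMT2 differed by 0.86 ± 0.55. Without 8778 these were -0.349 and 0.565. BHMT2 then averaged 19.7 CPM in biosolids males, with a median of 13.5 and a range of 10.5 to 54.5 CPM, so its mean leaned on the highest lamb. In females MAT2B, the regulatory subunit of MAT2A, differed by -0.41 ± 0.22 (unadjusted p 0.0696) and CTH, which turns cystathionine into cysteine, by 0.33 ± 0.21. MAT2B had an interaction of 0.67 ± 0.32 with an unadjusted p of 0.0438 and an edgeR adjusted p of 0.951.

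All 15 genes of folate and choline supply were tested and 0 passed for exposure (0 at an unadjusted p under 0.05 in either sex), with ALDH1L1 at -0.35 ± 0.30 in males. Between the sexes 13 of 15 fitted differences lay above 0 over both exposures, beside 46.2% of all genes, with a median of 0.26 against -0.025. At an unadjusted p under 0.05 there were 3 of 15, beside the 19.6% of all genes already given. ALDH1L1, which oxidises a folate-bound one-carbon unit to carbon dioxide, averaged 1028 ± 455 CPM in biosolids males and 1312 ± 413 CPM in control males (SD, n = 7 each), against 723 ± 343 CPM in biosolids females and 787 ± 227 CPM in the control females (SD over 8 lambs each). Its log2 difference was 0.62 ± 0.21 (SE, unadjusted p 0.0048, edgeR adjusted p 0.189), and SHMT1, which loads folate from serine in the cytosol, differed by 0.47 ± 0.17 (unadjusted p 0.00968, adjusted p 0.201). In the other lists 0 genes passed for sex, with PARP1 at 0.33 ± 0.13, ZBTB4 at 0.22 ± 0.088 and NNMT, which spends S-adenosylmethionine on nicotinamide, at 1.03 ± 0.42 over both exposures, which was 0.616 without 8408.

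Of the 19 cell-cycle genes tested 0 passed for exposure, and 0 had an unadjusted p under 0.05 in either sex. In males 14 lay below 0 with a median of -0.296 and in females 14 with a median of -0.067, beside 48.7% and 54.1% of all genes below 0. MKI67, a marker of dividing cells, had 2.84, 5.19 and 7.71 CPM in biosolids males, against 4.20, 6.69 and 20.9 CPM in control males. The top value, of lamb 8428, is the control male with high UHRF1. Its log2 difference was -0.69 ± 0.37 in males (unadjusted p 0.073, edgeR adjusted p 0.816), while PCNA, the clamp that holds DNA polymerase and DNMT1 on the template, differed by 0.40 ± 0.22. Without 8778 MKI67 differed by -0.632 and PCNA by 0.22.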

How the data were processed

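The values used are whole-number gene counts as deposited by the authors, 1 column per lamb, with exon length in another column, and 0 columns were left without a lamb. RNA came from frozen liver by column kit and libraries from a TruSeq RNA kit, per the labels' protocols. The submitters' processing notes name, without settings, featureCounts 1.5.0-p3 and STAR, beside Trimmomatic, FastQC and MultiQC. Of 31304 genes, 7 were broken over 25 lines and were rejoined. 28806 symbols matched RefSeq ARS-UI_Ramb_v3.0, all with identical start and end.

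Counts were filtered with filterByExpr, scaled by TMM and fitted with edgeR 4.0.16 in R 4.3.3 as 4 group means (robust quasi-likelihood, 26 residual degrees of freedom, biological coefficient of variation 35.2%), for 7 contrasts. SE was derived from the fold change and F. CPM used TMM-scaled library sizes, and correlations used a prior count of 2. The test was also run on simulated counts, the outcome of which is not given here. Depths in it followed total counts, so it does not cover the low depth of 8778 outside ribosomal rows. Alternatives were RLE scaling, DESeq2 1.42.0, no filter, at least 1 CPM in 15 libraries, ribosomal rows left out, 2 surrogate variables (sva 3.50.0), limma 3.58.1 voom with sample weights, and each lamb left out. Removing the first component, leaving out 8408 or the 3 lambs with most UHRF1 from correlations, and the values of lists, shares and marker sums without 8778 or 8408 were chosen after seeing the data. Members and gene lists were chosen with earlier results of these data known. All members are named; of each list, the 2 genes with the smallest p in a contrast described (not each contrast in full); and up to 3 genes closest to each member. A few genes these rules pick are not reported here. CDC20, CCNA2, ARRDC5 and LOC101112291 were named after their values were seen. Each lamb was taken as independent; as litters and processing days are not labelled, p-values could be too small, and tag numbers of the exposure groups do not overlap, so that day or flock and exposure cannot be told apart.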

Additional observations from a re-analysis of the deposited data

Results flagged for a closer look

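Of 44 sets of values (the 10 genes and the MAT1A to MAT2A ratio in each of 4 groups), 6 held a lamb far from the others of its group by Dixon's test, where chance gives about 1 in 20. UHRF1 was high in biosolids female 8775 (12.31 CPM, next 3.513), control male 8428 (12.1 CPM, next 4.457) and control female 8245 (8.392 CPM, next 4.385), the lambs with the highest cell-cycle sums. DNMT3A was low in biosolids male 8778 (25.91 CPM, next 33.52), the library with 87.5% ribosomal RNA, where the gene had 73 counts. TDG was high in control male 8364 (20.54 CPM, next 15.39). The MAT1A to MAT2A ratio was high in control male 8408 (13.84, next 7.144), the male with 302 CPM of the X-linked LOC101112291. The causes were not tested.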

How the results depend on the processing

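Over 37 other fits, 2590 values of the 10 genes in 7 contrasts gave 76 changes of sign and 3 calls gained. Since 0 of these differences were called as reported, no call could be lost, which says nothing about stability. RLE scaling, DESeq2, no filter and leaving out ribosomal rows turned no sign. Counts of genes called moved with DESeq2 (4 for exposure in males, 4 over both sexes, 1 for the interaction, 53 for sex in controls, 106 over both exposures), with at least 1 CPM in 15 libraries (3, 7 and 11 for sex in controls, in biosolids lambs and over both) and with voom weights (64 for sex in controls and 3327 over both). With 1 lamb left out they ran from 10 to 23 for sex in controls, 12 to 21 in biosolids lambs and 20 to 51 over both, and stayed at 0 for exposure and interaction. The count of related pairs was 1 by rho (3 by r) with the first component removed, where TET3 with MAT1A turned to a rho of -0.181 and TET2 with MBD2 stayed at 0.523. The cause was not tested.

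Log2 differences that turned sign were MBD2 in males (0.00983) under the stricter filter. With 2 surrogate variables, they were TDG (0.00791) and MAT1A (-0.00301) for exposure in females, DNMT3A in males (0.00611) and over both sexes (0.0104), TET1 over both sexes (-0.0125), TET3 in the interaction (0.0578), UHRF1 (-0.00712), TDG (0.124) and MBD2 (-0.0263) for sex in controls, MAT1A for sex in biosolids lambs (-0.0709), and TDG (0.055) and MAT1A (-0.0194) for sex over both. With voom weights, they were DNMT1 (-0.0318), DNMT3A (-0.041), TDG (0.0218) and MAT1A (-0.137) for exposure in females, MBD2 in males (0.0142), and TET1 (-0.0269) and TDG (0.00166) over both sexes.

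With 1 lamb left out, exposure in females ranged from -0.0415 to 0.0879 for DNMT1, -0.04 to 0.05 for DNMT3A, -0.753 to 0.084 for UHRF1, -0.105 to 0.0117 for TET3, -0.076 to 0.0522 for TDG and -0.12 to 0.174 for MAT1A. In males it ranged from -0.0217 to 0.0677 for TET2, -0.117 to 0.0517 for TDG and -0.0605 to 0.033 for MBD2, and over both sexes from -0.031 to 0.058 for TET1 and -0.0647 to 0.0197 for TDG. The interaction ranged from -0.732 to 0.12 for UHRF1 and -0.105 to 0.0641 for TDG. Sex differences ranged from -0.0501 to 0.108 for DNMT3B and -0.263 to 0.427 for UHRF1 in controls, and for UHRF1 from -0.552 to 0.309 in biosolids lambs and -0.277 to 0.249 over both. MAT1A to MAT2A log2 ratios ranged from -0.374 to -0.113 (exposure in males), -0.273 to -0.0468 (females), 0.16 to 0.331 (sex in biosolids lambs) and 0.171 to 0.474 (controls). No paired analysis was possible because the groups share no replicate numbers. The precision of DNMT3B in library 8778 is limited by its 4 counts.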
